A study of Mus musculus with 20 samples.

Results

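The genes described here are 6 markers of T and natural killer (NK) lymphocytes, Il2rb, Cd2, Cd3g, Ptprcap, Trav9d-3 and Ctla4, measured in the livers of 20 mice. They were the probes whose annotated gene symbol was one of these 6 names. Each gene was read by 1 probe, so that 6 of 23574 probes and 6 of 11734 named genes were members. The names had been chosen by the measured log2 difference between gonadal males and gonadal females, so that this difference is described for them without a test.

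The mice were C57BL/6J animals of the FCG design, whose name refers to its core genotypes. Their Y chromosome is without the testis-determining gene Sry (written Y-) and the gonadal males carry a Sry transgene on an autosome, so that the type of gonad is inherited apart from the sex chromosomes. The groups were XX Sry gonadal males (XXM, animals 38, 18, 9, 31 and 32), XY-Sry gonadal males (XYM, animals 19, 27, 20, 5 and 14), XX gonadal females (XXF, animals 29, 6, 21, 35 and 2) and XY- gonadal females (XYF, animals 12, 30, 24, 3 and 22), and values are given below in these orders. All 20 mice were fed chow (4% fat) and gonadectomized when 8 weeks old, and their livers were taken at the age of 12 weeks, food having been withheld for 12 h. Each liver was set on a 2-colour array against a common liver pool, and every value is a log2 ratio of liver to pool, so that 1 unit is a doubling. Each sample was a different animal. The sets of comparisons were the gonadal contrast (males minus females), the sex chromosome contrast (XX minus XY) and their interaction.

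T lymphocytes recognise antigen through a receptor whose variable chains pair with the CD3 chains, which carry the signal into the cell. NK cells lack that receptor and respond to cytokines such as interleukin 15, which they and memory T cells bind through a receptor chain they share, the Il2rb product. The liver holds resident and passing T, NK and NKT cells in its sinusoids. In whole tissue, fewer cells of a type and less RNA per cell cannot be told apart. A ratio to a pool gives no level either, so that genes are compared only in how they differed between livers, and whether a marker was near 0 in these livers cannot be read.

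All genes but Ctla4, 5 of 6, were lower in the livers of gonadal males, by 1.81-fold to 3.50-fold, with each of the 10 males below each of the 10 females. For comparison, 0.286% of features had all males below all females, and 2.28% were called lower in males (adjusted p under 0.05). Since this contrast chose the genes, nothing is read from that count. Ctla4 showed no such separation, and its groups overlapped throughout. Of the 5 genes, Ptprcap had the narrowest space between the lowest female and the highest male, 0.11 log2 units, and Il2rb the widest, 0.91.

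The annotated start sites of the members with a sequence at hand are printed as a description. Promoter sequences were at hand for Cd3g and Ctla4 only, from RefSeq on GRCm38.p6, covering 250 bases before the start and 50 after it. The Cd3g window lies on the minus strand at chr9:44980382-44980681 and the Ctla4 window on the plus strand at chr1:60908775-60909074. Each is written 5′ to 3′ along its gene, and capitals mark GGAA on either strand, the core of ETS factor sites, which appears as TTCC where it lies on the opposite strand.
Cd3g: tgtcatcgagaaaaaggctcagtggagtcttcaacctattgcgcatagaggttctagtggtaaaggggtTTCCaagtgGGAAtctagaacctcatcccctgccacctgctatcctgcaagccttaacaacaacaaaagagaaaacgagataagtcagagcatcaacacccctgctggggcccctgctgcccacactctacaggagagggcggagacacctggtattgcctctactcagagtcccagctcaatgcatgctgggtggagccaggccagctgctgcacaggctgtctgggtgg
Ctla4: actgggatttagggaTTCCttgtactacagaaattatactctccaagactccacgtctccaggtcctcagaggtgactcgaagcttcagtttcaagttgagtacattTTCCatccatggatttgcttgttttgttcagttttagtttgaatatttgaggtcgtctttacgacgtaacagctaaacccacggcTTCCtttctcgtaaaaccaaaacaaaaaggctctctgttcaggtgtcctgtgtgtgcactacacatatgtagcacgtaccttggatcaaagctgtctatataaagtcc
The Cd3g window held 2 matches and the Ctla4 window 3. Of 32544 promoters of the same length, 96.0% held at least 1 such match, with a median of 3 matches. The RUNX core TGTGGT and the T-box core TCACAC, searched on both strands with no overlap with GGAA, were in neither window, and 16.7% and 14.3% of all promoters held them.

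The arrays were similar in centre, and the Y-linked genes given below fitted the labelled sex chromosomes in 19 of the 20 livers. The labels of gonadal type were not checked. Array medians ran from -0.0107 to 0.0155 on the log10 scale, and the standard deviation (SD) of the log2 ratios over all features from 0.175 to 0.341. The Y-linked gene Eif2s3y was at -5.28 to -2.46 in XX livers (n = 10) and at 0.57 to 1.34 in XY livers (n = 9). The library labelled XYF 30 stood at -3.90 for Eif2s3y and at -3.16 for Kdm5d, another Y-linked gene, against its label. The library XYF 12 stood apart in another way, with the highest value of all 20 livers for each of the 6 genes. The sex chromosome contrasts are therefore given also without these libraries. Between arrays, correlations over all features ran from -0.543 to 0.684, with 9 of 190 pairs below -0.3. The liver was in the same dye on every array, and the sign of Eif2s3y fits a ratio of liver over pool.

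**Figure D1:**
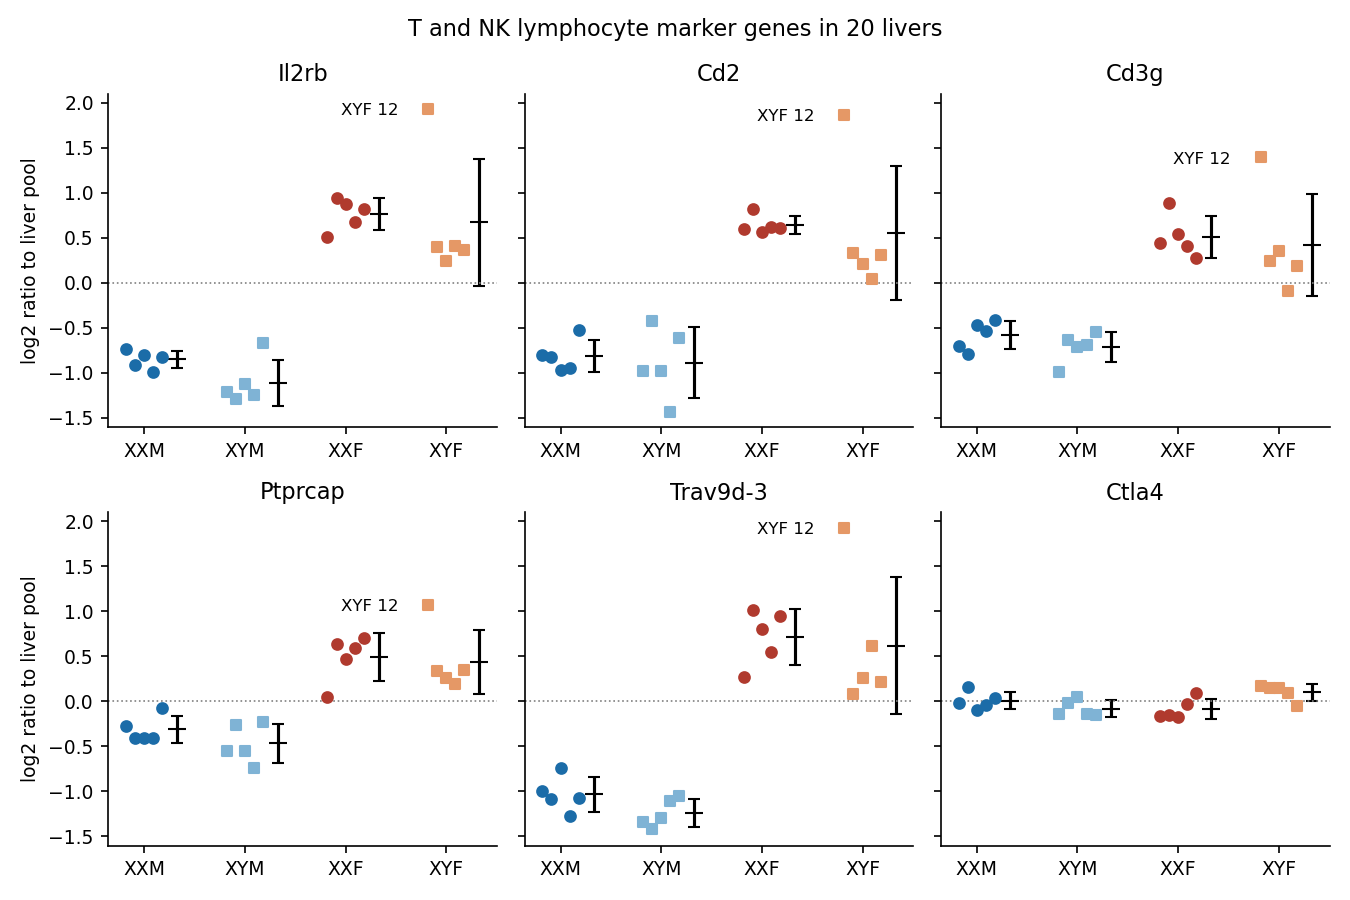
Log2 ratio of liver to pool (y axis) of each of the 6 genes in the 4 groups (x axis), with a point for each of the 5 livers of a group and the mean with its SD beside them. For all genes but Ctla4 the males (blue) lie below the females (red and orange), and XYF 12, the highest liver, is marked where its value is above 1.

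Il2rb encodes the beta chain of the interleukin 2 and interleukin 15 receptors. Its log2 ratios were -0.73, -0.91, -0.80, -0.98 and -0.83 in XXM livers and -1.21, -1.30, -1.12, -1.25 and -0.67 in XYM livers. In the females they were 0.51, 0.95, 0.87, 0.68 and 0.82 for XXF and 1.94, 0.40, 0.25, 0.41 and 0.37 for XYF. Every male was below the pool and every female above it, with XYM 14 the highest of all males and XYF 12 the highest of all females. The males averaged -0.98 ± 0.23 (SD, n = 10) and the females 0.72 ± 0.49 (n = 10). The fitted difference was -1.70 ± 0.16 (standard error, SE), or 3.25-fold lower in males. It was -1.62 between the XX groups and -1.78 between the XY groups, and -1.54 with XYF 12 left out.

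Trav9d-3 is a variable segment of the T cell receptor alpha chain, and it had the largest difference of the 6 genes. Its values were -1.0, -1.08, -0.74, -1.27 and -1.08 in XXM and -1.34, -1.42, -1.30, -1.11 and -1.05 in XYM livers. The XXF livers stood at 0.27, 1.01, 0.80, 0.55 and 0.95 and the XYF livers at 1.93, 0.08, 0.26, 0.61 and 0.21. Again no male reached the pool and no female fell below it. The mean was -1.14 ± 0.20 (SD, n = 10) in males and 0.67 ± 0.55 (n = 10) in females, a difference of -1.81 ± 0.18 (SE), or 3.50-fold, and of -1.64 without XYF 12. Alpha variable segments have near-identical copies, and which part of the transcript the probe reads is not given in the sources used here, so that this value may hold RNA of other segments.

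Cd2 encodes an adhesion receptor of T and NK cells, whose ligand in mice is Cd48. It was measured at -0.80, -0.82, -0.97, -0.94 and -0.52 in XXM and at -0.98, -0.42, -0.98, -1.44 and -0.62 in XYM livers. In XXF livers it was 0.60, 0.83, 0.56, 0.62 and 0.61, and in XYF livers 1.87, 0.33, 0.21, 0.05 and 0.31. The XXF values lay close together with XXF 6 above the rest, while the XYM values were spread from XYM 5 to XYM 27. The difference was -1.45 ± 0.18 (SE), 2.73-fold, from means of -0.85 ± 0.29 (SD, n = 10) and 0.60 ± 0.50 (n = 10). Without XYF 12 it was -1.28.

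Cd3g encodes the gamma chain of the CD3 complex. Its log2 ratios were -0.70, -0.79, -0.46, -0.53 and -0.42 in XXM and -0.99, -0.63, -0.71, -0.70 and -0.55 in XYM. The XXF livers had 0.44, 0.89, 0.55, 0.41 and 0.28, and the XYF livers 1.40, 0.24, 0.35, -0.08 and 0.19. One female, XYF 3, was below the pool, yet still above every male. The means were -0.65 ± 0.17 (SD, n = 10) in males and 0.47 ± 0.41 (n = 10) in females, which is a difference of -1.11 ± 0.14 (SE), or 2.16-fold, and -0.99 without XYF 12.

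Ptprcap encodes a membrane protein bound to CD45, the phosphatase of the leukocyte surface, and is found in B cells as well as T and NK cells. The XXM livers stood at -0.27, -0.40, -0.40, -0.40 and -0.07 and the XYM livers at -0.55, -0.26, -0.55, -0.74 and -0.23. In XXF livers the values were 0.04, 0.64, 0.47, 0.60 and 0.71, and in XYF livers 1.07, 0.33, 0.26, 0.19 and 0.35. XXM 32 and XXF 29 were the neighbours across the space between the gonadal types. The males averaged -0.39 ± 0.19 (SD, n = 10) and the females 0.47 ± 0.30 (n = 10). The difference of -0.85 ± 0.11 (SE), 1.81-fold, was the smallest of the 5, and it was -0.78 without XYF 12.

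Ctla4 encodes an inhibitory receptor of activated and regulatory T cells that competes with Cd28 for the ligands Cd80 and Cd86. Its values were -0.01, 0.16, -0.10, -0.04 and 0.04 in XXM, -0.14, -0.02, 0.05, -0.15 and -0.15 in XYM, -0.16, -0.16, -0.17, -0.03 and 0.09 in XXF, and 0.18, 0.15, 0.15, 0.10 and -0.06 in XYF livers. All lay near the pool, and males and females overlapped. The difference between gonadal types was -0.04 ± 0.05 (SE). Over the 20 livers Ctla4 had an SD of 0.121, below the median of 0.158 over all features, whereas the other 5 genes had SDs from 0.502 (Ptprcap) to 1.01 (Trav9d-3). Whether the Ctla4 probe was above its background cannot be read from ratios.

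XX and XY livers were then compared within and across gonadal types, a contrast that the choice of genes did not use. None of the 6 genes differed past the threshold with all 20 arrays, where 0.0277% of features were called by limma with Benjamini-Hochberg adjustment. The XX minus XY difference of Il2rb was 0.18 ± 0.16 (SE; 95% interval -0.17 to 0.52; adjusted p = 0.931), and those of the other 5 genes ran from -0.05 (Ctla4) to 0.15 (Trav9d-3), with adjusted p from 0.931 to 0.959. Over all features, 5.08% had an unadjusted p under 0.05, and no member was among them. These intervals do not show that the complements acted alike.

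The XX minus XY values moved with single libraries, most with XYF 12. With XYF 12 left out, the Il2rb difference was 0.33 ± 0.08 (SE; 95% interval 0.17 to 0.49; unadjusted p = 0.000372, adjusted p = 0.474). Without XYF 12 the differences were 0.32 for Trav9d-3 (unadjusted p = 0.00513), 0.25 for Cd2 (0.0262), 0.23 for Cd3g (0.0114) and 0.18 for Ptprcap (0.0501), with adjusted p = 0.852 for each. Ctla4 was at -0.04. No member passed the threshold, and 0.0139% of features did, while 5.26% had an unadjusted p under 0.05 in this fit. XYF 12 was left out for its high values in these same genes. Leaving it out raises XX minus XY whatever the other livers hold, so that these p-values and intervals are only descriptions. With both XYF 12 and the library labelled XYF 30 left out, Il2rb was at 0.34 (adjusted p = 0.56), and the other 4 genes without Ctla4 lay between 0.19 (Ptprcap) and 0.28 (Trav9d-3), with adjusted p = 0.808. Other animals lowered the values when left out singly. Cd2 was at 0.015 without XYM 5 and at 0.021 without XYF 3, Cd3g at 0.050 without XYF 3, and Trav9d-3 at 0.086 without XYF 30. Over the 20 fits that leave out 1 animal, the difference ran from 0.12 to 0.33 for Il2rb, 0.015 to 0.25 for Cd2, 0.050 to 0.23 for Cd3g, 0.068 to 0.18 for Ptprcap, 0.086 to 0.32 for Trav9d-3 and -0.07 to -0.03 for Ctla4.

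**Figure D2:**
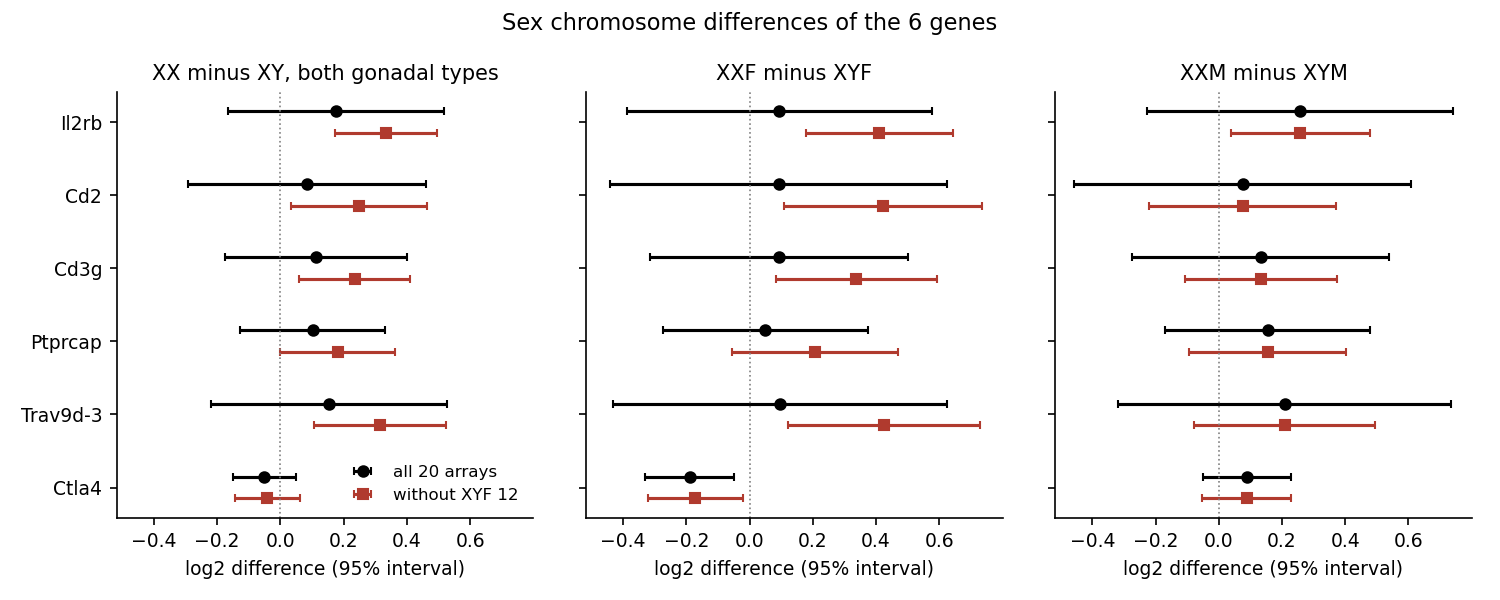
Differences between XX and XY livers on the log2 scale (x axis) with 95% intervals for the 6 genes (y axis), over both gonadal types, within gonadal females and within gonadal males, with all 20 arrays (black) and without XYF 12 (red). In females the Il2rb difference is 0.09 with all arrays and 0.41 without XYF 12. That liver was left out for its high values in these genes, so that the red intervals are only descriptions.

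Gonadal females and gonadal males were then taken apart. With all 10 females the XXF minus XYF differences of the 5 genes lay between 0.05 (Ptprcap) and 0.10 (Trav9d-3). Without XYF 12 they were 0.41 ± 0.11 (SE) for Il2rb (unadjusted p = 0.00168), 0.42 for Trav9d-3 (0.00886), 0.42 for Cd2 (0.0113), 0.34 for Cd3g (0.0124) and 0.21 for Ptprcap (0.116), with adjusted p = 0.493 for the first 4 and 0.582 for Ptprcap. For Il2rb and Cd2 all 5 XXF livers were above the 4 remaining livers labelled XYF, as in 0.541% of features, and 1 of those 4 is the library labelled XYF 30, whose Y-linked values lie with the XX livers. None was called, nor was any feature (0%), while 9.67% of features had an unadjusted p under 0.05 in this fit. Since XYF 12 was left out for its values in these genes, the p-values and the separation without it are only descriptions. Without the library labelled XYF 30 alone, the XXF minus XYF differences were 0.025 for Il2rb, 0.038 for Cd2, 0.049 for Cd3g, 0.023 for Ptprcap and -0.037 for Trav9d-3. Without both libraries they were 0.42 for Il2rb, 0.46 for Cd2, 0.36 for Cd3g, 0.22 for Ptprcap and 0.35 for Trav9d-3, with adjusted p from 0.609 to 0.636. In gonadal males the XXM minus XYM differences ran from 0.08 (Cd2) to 0.26 (Il2rb), and each 95% interval included 0. They had adjusted p = 1 for each and none at an unadjusted p under 0.05, where 0.00462% of features were called.

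Ctla4 ran the other way in females. The XXF minus XYF difference was -0.19 ± 0.07 (SE; unadjusted p = 0.0106, adjusted p = 0.767), and XXM minus XYM was 0.09. Its interaction of complement and gonadal type was 0.28 ± 0.09 (SE; unadjusted p = 0.00833), and it did not pass the adjustment (adjusted p = 1). Without the library labelled XYF 30 the interaction was 0.27 and the XXF minus XYF difference -0.18 (adjusted p = 0.741), and without both XYF 12 and XYF 30 they were 0.24 and -0.15 (0.612). No feature was called in that test (0%), and 2.6% had an unadjusted p under 0.05. The interactions of the other 5 genes, none at an unadjusted p under 0.05, lay between -0.02 (Cd2) and 0.16 (Il2rb), within 1 SE of 0.

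Correlations between the genes from liver to liver were taken within each gonadal type. XX and XY livers were pooled and their group means were not subtracted, so that r can hold a difference between the complements. In females, Il2rb and Trav9d-3 had Pearson r = 0.957 and Spearman rho = 0.903 (n = 10, adjusted permutation p = 0.0112 for rho), and Il2rb and Cd2 had r = 0.963 (adjusted permutation p = 0.0021) and rho = 0.842 (0.0288). All 10 pairs of the 5 genes passed by Pearson r, which ran from 0.751 to 0.963, and 2 passed by both measures. The 2 livers farthest from the median were taken by the first gene of each pair, in the order of the genes given at the start. Without those 2 livers the r of the 10 pairs ran from 0.0853 to 0.823. Without XYF 12 it ran from 0.436 to 0.874, so that several of these relations rest on a few livers. P-values were adjusted over 30 correlations.

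In gonadal males r ran from -0.144 (Cd2 and Trav9d-3) to 0.907, and 2 of the 10 pairs passed by both measures. Cd2 and Ptprcap had r = 0.907 (n = 10, adjusted permutation p = 0.00345) and rho = 0.952 (0.0042), with r = 0.93 without the 2 farthest livers. Il2rb and Trav9d-3 had r = 0.736 (adjusted permutation p = 0.0357) and rho = 0.879 (0.0168), with r = 0.77 without them. The Il2rb and Trav9d-3 pair thus passed in both gonadal types. No pair with Ctla4 passed in either, with r between -0.0309 and 0.245 in females and between -0.0985 and 0.323 in males.

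**Figure D3:**
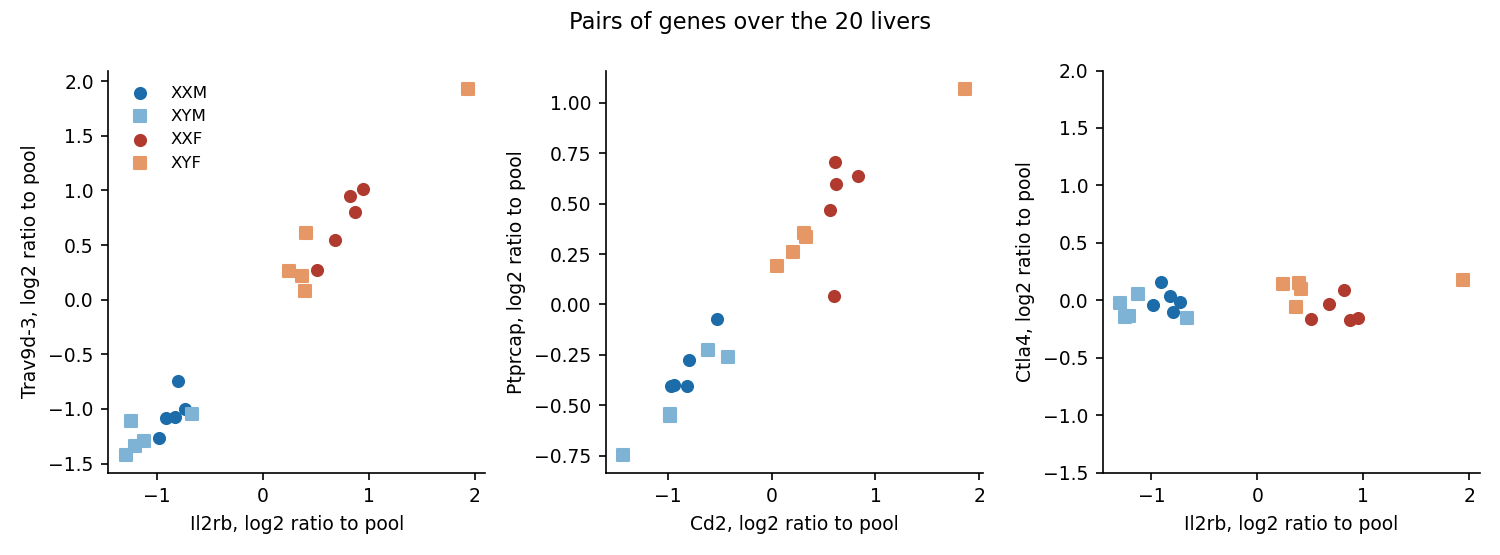
Log2 ratios of 3 pairs of genes over the 20 livers, each point a liver, with Trav9d-3 against Il2rb, Ptprcap against Cd2 and Ctla4 against Il2rb. The males and females form separate clusters in the first 2 panels, and Ctla4 stays between -0.17 and 0.18 while Il2rb runs from -1.30 to 1.94.

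Ordered by the mean of the 5 genes, XYF 12 was highest at 1.64, followed by XXF 6 at 0.86. The other XXF livers lay between 0.37 and 0.67 and the other XYF livers between 0.23 and 0.29. The males ran from -0.58 (XXM 32) to -1.05 (XYM 5). The library labelled XYF 30, at 0.28, sat among the other XYF livers. Without that library the Trav9d-3 difference between gonadal types was -1.87, and without it and XYF 12 it was -1.68.

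The genes whose remaining variation, after the group means were taken away, was most like the mean of the 6 genes were Tbc1d10c (r = 0.971), Ccl8 (0.965), Flna (0.957), Arhgdib (0.955), Col1a1 (0.955), S100a6 (0.947), Sh3bgrl3 (0.946), Aldh18a1 (0.938), Pf4 (0.937) and Fxyd5 (0.935), over 20 livers. These values are a description. The likeness leaned on XYF 12, since without it r was 0.841 for Tbc1d10c, 0.765 for Ccl8 and 0.753 for Flna, and 4 of these 10 genes were still among the first 10. The median r over all features was -0.0796, and -0.00766 without XYF 12. With the group means kept, 1 of the 10, Tbc1d10c, remained among the first 10.

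Other genes of the lymphocyte systems were read from 5 lists that leave out the 6 members, namely the T cell receptor complex and its signalling, NK and cytotoxic genes, the interleukin 2 and 15 receptor system, the CD2 and SLAM families with leukocyte adhesion, and the CTLA-4 system with regulatory T cell genes. Of 128 genes, 105 were measured. In gonadal males 30 were called lower and 0 higher, which is 28.6% lower against 2.28% of all features and 1.46% higher. The median difference of the 105 genes was -0.14, and that of all features 0.01. The lists were written with earlier results of these data known, so that these counts are a description and no independent support. Leaving out XXM 18, XXM 31 or XYM 19 gave 18 lower genes and leaving out XYM 27 gave 19, and 18 of the 30 were called in each of the 20 fits that leave out 1 animal. By limma, 52 of the 105 had an unadjusted p under 0.05, and 2 of those were higher in males. Of all features, 17.8% had such a p. None of the 105 was called between XX and XY livers, with 5 at an unadjusted p under 0.05.

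The 25 measured genes of the T cell receptor list had a median of -0.16. Of these, 7 were lower in males and 0 higher (2.28% and 1.46% of all features). Cd3d, the delta chain of CD3, averaged -0.22 ± 0.06 (SD, n = 10) in males and 0.24 ± 0.18 (n = 10) in females, a difference of -0.46 ± 0.06 (SE; adjusted p = 4.54e-04). Txk, a kinase of the Tec family in T cells, was lower, at -0.82 ± 0.12 (SE; adjusted p = 0.00136), and neither gene had a male within the female range. Satb1 (-0.50; adjusted p = 0.00311), a chromatin organiser of thymocytes, and Ptpn22 (-0.38; 0.0089), a phosphatase of receptor signalling, were also lower in males. The calls of Zap70 (-0.31) and Gata3 (-0.20) were lost without 1 of 6 animals each, and that of Cd8a (-0.18) held in 5 of 20 fits. Without the 4 arrays with an SD above 0.3, Gata3 and Cd8a were not called (adjusted p = 0.144 and 0.147). Only 4 were called without XXM 18, XXM 31, XYM 19, XYM 27 or XXF 2.

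Genes of the same receptor complex did not all behave like Cd3g. Cd3e differed by -0.10 (adjusted p = 0.287) and Cd247, the zeta chain, by -0.05 (0.792). Cd4 differed by 0.10 (adjusted p = 0.483) and Cd8b1 by 0.08. The SD over the 20 livers was 0.11 for Cd3e, 0.15 for Cd247 and 0.165 for Cd4, against 0.648 for Cd3g and 0.269 for Cd3d. Of 8 further T cell receptor entries, named Tcra, Tcrb-V8.2, Tcrb-V8.3, Trav2, Trav6d-6, Trgv2, Trgv5 and Trgv7, none was called by limma. Of these, 0 had an unadjusted p under 0.05, against 17.8% of all features. The differences of the 8 entries lay between -0.04 and 0.03, while Trav9d-3 stood at -1.81. Segments with near-identical copies may share a probe, and whether these flat probes were above background cannot be read from ratios.

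The 30 measured NK and cytotoxic genes had a median of -0.16. Of these, 9 were lower in males and 0 higher (2.28% and 1.46% of all features). Tbx21, the transcription factor T-bet, was lower, at -1.12 ± 0.15 (SE; adjusted p = 6.52e-04) and Fasl, the death ligand of cytotoxic cells, at -0.87 ± 0.11 (SE; 1.58e-04), both without overlap. Klrb1c, the NK1.1 antigen, was lower, at -0.57 (adjusted p = 0.00603) and the chemokine gene Ccl4 at -0.99 (0.0196). Ifng, the gene of interferon gamma, averaged -0.35 ± 0.18 (SD, n = 10) in males and 0.17 ± 0.39 (n = 10) in females and differed by -0.52 (adjusted p = 0.0291). Its call was lost without XXM 18, XXM 31 or XYM 19. The NK receptor gene Ncr1 differed by -0.01 (adjusted p = 0.973) and the granzyme gene Gzmb by 0.10 (0.475). Gzma, another granzyme gene, differed by 0.18 (adjusted p = 0.725). Without the 4 arrays with an SD above 0.3 it was higher in males, at 0.51 (0.00795). Those arrays, all of females, include the livers highest for Gzma, XXF 6 (1.11) and XYF 12 (0.64). Klrd1 was at -0.66 and missed the threshold (adjusted p = 0.0748), and it was called without those 4 arrays (0.0317), after scaling (0.0289) or quantile normalization (0.0134) and with array weights (0.0275). It was not called after median-centring (0.0901) or without both XYF 12 and the library labelled XYF 30 (0.111). Only 5 were called without XXM 18, XXM 31 or XYM 19.

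The 18 genes of the interleukin 2 and 15 receptor system had a median of -0.07. Of these, 3 were lower in males and 0 higher (2.28% and 1.46% of all features). They were Il7r (-0.35; adjusted p = 0.00542), the interleukin 7 receptor, Stat4 (-0.60; 0.0201), which carries interleukin 12 signals, and Socs1 (-0.55; 0.0361), an inhibitor of cytokine signalling. The calls of Il7r and Stat4 held in each of the 20 fits that leave out 1 animal, and that of Socs1 in 9 of them. Il2ra, Il15 and Il15ra, the measured genes named here as partners of the Il2rb product, did not pass. Il2ra differed by 0.04 (adjusted p = 0.967), Il15 by -0.56 (0.0663) and Il15ra by 0.07 (0.895). Il15 was called after scaling (adjusted p = 0.0393) or quantile normalization (0.0302) of the arrays and with array weights (0.0455). The count was 5 after scaling or quantile normalization of the arrays or with array weights.

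The 19 genes of the CD2 and SLAM families and adhesion had a median of -0.27. Of these, 8 were lower in males and 0 higher (2.28% and 1.46% of all features). The chemokine receptor genes Cxcr3 (-0.82; adjusted p = 8.97e-04) and Cxcr6 (-0.94; 0.00152), which guide T, NK and NKT cells in the liver, were among them. Slamf8 (-1.43; adjusted p = 0.00598), a family member known mainly from myeloid cells, and Icam2 (-0.52; 0.00712), an adhesion ligand also found on endothelium, were lower too. Cd48, the ligand of the Cd2 product, differed by -0.46 and did not pass (adjusted p = 0.121), except after quantile normalization (0.0489).

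The 19 genes of the CTLA-4 system had a median of -0.04. Of these, 3 were lower in males and 0 higher (2.28% and 1.46% of all features). Tnfrsf18, the receptor GITR, was lower, at -1.09 (adjusted p = 0.00518). Cd86, a ligand of the Ctla4 product, differed by -0.78 (adjusted p = 0.0423) and Icosl by -0.50 (0.0431). Foxp3, the regulatory T cell factor, was at 0.04 and Cd80 at -0.04. The count was 1 without any 1 of 12 animals (all 5 XXM, XYM 19, 27, 20 and 5, and XXF 6, 21 and 35), 1 after median-centring and 5 after quantile normalization.

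**Figure D4:**
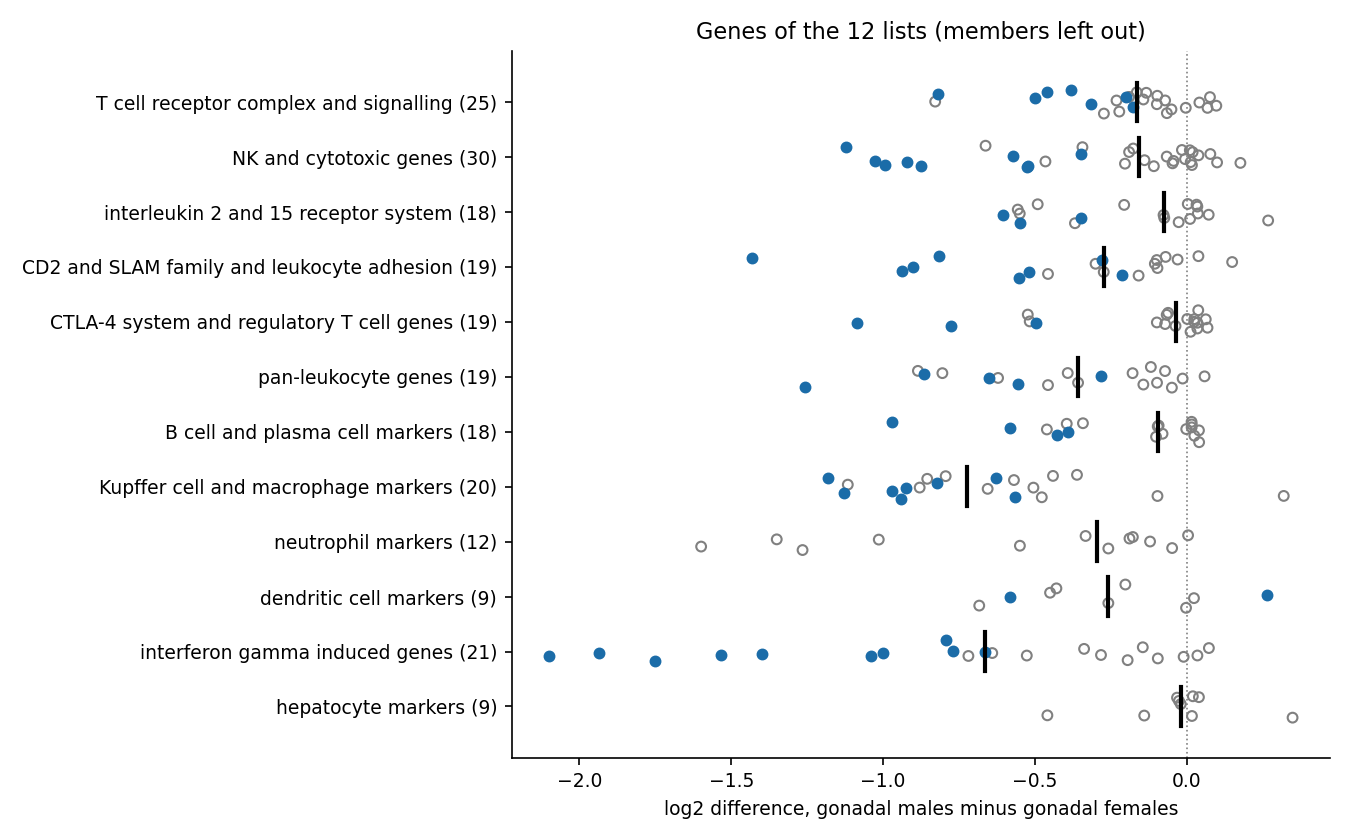
Difference between gonadal males and gonadal females on the log2 scale (x axis) of each measured gene of 12 lists (y axis, number of genes in brackets), filled where called and open where not, with a bar at the list's median. The lymphocyte lists hold called genes on the left beside many genes near 0, and the median of the Kupffer cell list lies at -0.72.

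Some genes of other blood cells were also lower in gonadal males. The 76 measured genes in the pan-leukocyte, B cell, Kupffer cell, neutrophil and dendritic cell lists had a median of -0.39. Of these, 18 were called lower in males and 1 higher (2.28% and 1.46% of all features). The count of lower genes was 11 without XXM 18, XXM 31 or XYM 19. Among 20 Kupffer cell and macrophage markers 8 were lower and 0 higher, with a median of -0.72, among them Clec4f (-0.82; adjusted p = 0.0106), Folr2 (-1.13; 0.00751), C1qb (-0.63; 0.00699) and Fcna (-0.56; 0.0137). Of 18 B cell markers 4 were lower, which were Cd22 (-0.97; adjusted p = 0.00457), Cd79b (-0.43; 0.00792), Cxcr5 (-0.58; 0.0094) and Cd72 (-0.39; 0.0293). The Cd72 call held in 14 of the 20 fits that leave out 1 animal. The median of the B cell list was -0.09, with 12 of the 18 genes below 0. Other B cell markers were near 0 and not called, among them Cd79a (0.02; adjusted p = 0.884), Ighm (0.02; 0.888), Pax5 (-0.001; 0.994) and Ms4a1 (-0.08; 0.489). Of 19 pan-leukocyte genes 5 were lower, among them Rac2 (-1.26; adjusted p = 0.00659), Arhgdib (-0.65; 0.0285), Evl (-0.56; 0.0299) and Ptpn6 (-0.28; 0.0361). That last count was 1 without XXM 18, XXM 31 or XYM 19, 2 without XYM 27 or XXF 2 and 3 without XXM 38, XXM 9, XYM 20 or XYM 5. After scaling of the arrays the lower genes were 15 in the Kupffer cell list and 8 in the pan-leukocyte list, and after quantile normalization 14 and 10.

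None of 12 neutrophil markers passed by limma, and 1 was called without XYF 12. An unadjusted p under 0.05 was found for 7 of the 12, and for 17.8% of all features. The largest differences of the neutrophil markers included Ngp at -1.60 (adjusted p = 0.148). Ngp was at -0.98 and called without the 4 arrays with an SD above 0.3 (0.00133). Of 9 dendritic cell markers, Itgax (-0.58; adjusted p = 0.0386) was lower and Ccr7 (0.27; 0.0382) higher, and each call held in 8 of 20 fits. None of 9 hepatocyte markers was called by limma, with 1 at an unadjusted p under 0.05 and a median of -0.02. The part of these cell types in the differences of the 6 genes was not tested.

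The 21 genes induced by interferon gamma, a product of T and NK cells, had a median of -0.66. Of these, 10 were lower in males and 0 higher (2.28% and 1.46% of all features). Cxcl9, a ligand of Cxcr3, was lower, at -2.10 (adjusted p = 9.28e-04) and Gbp2b, a guanylate-binding protein gene, at -1.94 (8.72e-04). H2-Aa (-1.04; adjusted p = 0.00687) and Psmb9 (-0.79; 0.00699), both of antigen presentation, were also called. Other genes of the list were not, among them Irf1 (-0.53; adjusted p = 0.225), Irgm1 (-0.28; 0.518) and Tap1 (-0.10; 0.776). Of the 21 genes 19 were below 0, and Iigp1 (0.07; adjusted p = 0.856) and Cxcl11 (0.04; 0.808) were above it.

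Some livers that stood high for the 5 genes also stood high for other blood cell lists, and others did not. XYF 12 had a mean of 1.82 over the neutrophil markers, where the other 19 livers were at -0.23 or below, of 1.54 over the Kupffer cell markers, 1.22 over the interferon gamma genes and 0.31 over the B cell markers. XXF 6 was the highest XXF liver for the Kupffer cell list (0.55) and the interferon gamma list (0.80). XXF 2, next after XXF 6 by the mean of the 5 genes, was the lowest XXF liver for the Kupffer cell list (-0.17) and the dendritic cell list (-0.02). XYM 14, the highest male for Il2rb, had a Kupffer cell mean of 0.34, where the other XYM livers lay between -0.68 and -0.46. Over the T cell receptor list the males lay between -0.16 and -0.06, below the females at -0.01 to 0.41. The highest male was also below the lowest female over the NK list (-0.10 and -0.05), the CD2 and SLAM list (-0.07 and -0.03) and the interferon gamma list (-0.36 and -0.26). In the remaining lists the gonadal types overlapped. The part of these lists in the values of single livers was not tested.

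**Figure D5:**
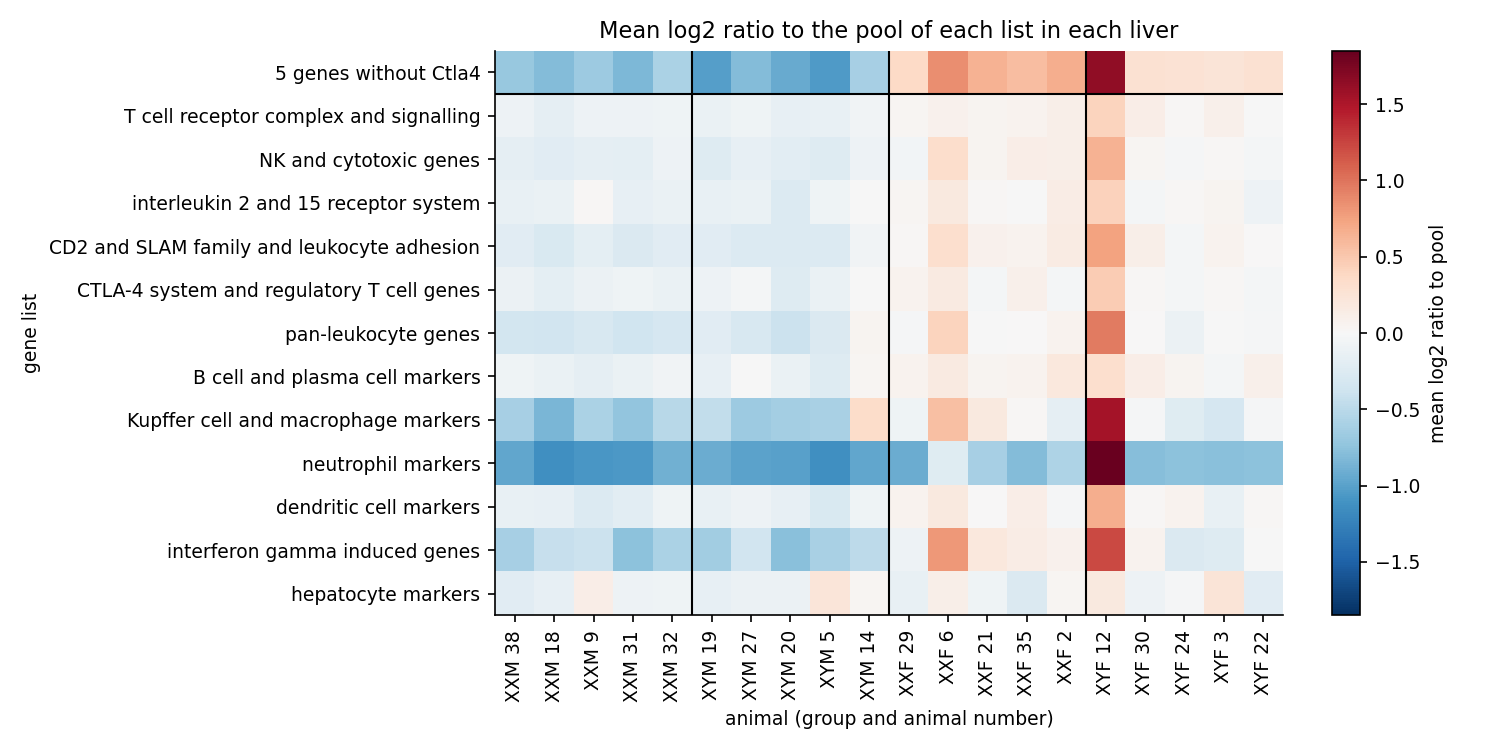
Mean log2 ratio to the pool (colour) of the 5 genes without Ctla4 and of each list (rows) in each of the 20 livers (columns, by group and animal number). XYF 12 is the highest liver for the 5 genes, at 1.64, and for the neutrophil list, at 1.82, and the males are below the pool for the 5 genes.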

How the data were processed

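Liver RNA (RNeasy columns with DNase, per the labels) was amplified with an aminoallyl MessageAmp II kit and set in Cy5 against a Cy3 liver pool. The labels describe the pool both as 17 chow-fed mice and as equal portions of the samples. The authors deposited 1 log ratio per probe and array. The values were deposited as log10 ratios of liver over pool, a base and direction read here from the values since no label states them, limited at ±2 (29 values at the limit, 2 missing). Scanner, background correction and dye normalization are not given in the sources used here.

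Ratios were turned to log2. Probes were named through Entrez IDs (12662), accessions (4) or the platform symbol (999), while 48 named several genes and 9861 were not listed. Probes of 1 gene were averaged (1244 features), which left 21643 features. Means of the 4 groups of 5 were fitted with limma 3.58.1 (R 4.3.3; lmFit, eBayes), adjusted by Benjamini-Hochberg over all features at a threshold of 0.05, and tested on simulated data. Correlations used 100000 permutations (two-sided).

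The members and lists were chosen with earlier results of these data known. Named genes were the members, up to 4 genes of each list with the smallest p, and the 10 most alike; the receptor segments, the partners of the members and the remaining list genes were added after their values were seen. The number of arrays limits the precision.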

Additional observations from a re-analysis of the deposited data

Results flagged for a closer look

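Of 24 groups of 5 livers, 6 held a liver far from the other 4 by Dixon's test (gap over range above 0.71), and chance gives about 1 in 20 such groups. XYF 12 was the high liver in 4 of them. It stood at 1.94 for Il2rb, where the other XYF livers lay between 0.25 and 0.41, and at 1.87 for Cd2, where they lay between 0.05 and 0.33. It stood at 1.07 for Ptprcap against 0.19 to 0.35, and at 1.93 for Trav9d-3 against 0.08 to 0.61. Among XY-Sry males, XYM 14 stood at -0.67 for Il2rb, above the others at -1.30 to -1.12. Among XX females, XXF 6 stood at 0.83 for Cd2, above the others at 0.56 to 0.62. The XYF 12 values share 1 library, so that they are not separate events.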

How the results depend on the processing

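No paired analysis was possible because the animal numbers differ between all groups. The gonadal differences of the 6 genes kept their sign under every alternative run (leaving out each animal or the 4 arrays with an SD above 0.3, median-centring, scaling, quantile normalization, array weights, single probes, values at the limit missing, and, chosen after seeing the data, leaving out both XYF 12 and XYF 30). Interactions that turned sign were those of Il2rb (-0.092 without the wide arrays, -0.054 with array weights, -0.17 without both libraries), Cd3g (-0.068, -0.0392 and -0.23), Trav9d-3 (-0.15, -0.12 and -0.15, and -0.0049 after scaling) and Ptprcap (-0.069 without both libraries). XX minus XY of Cd2 in males was -0.019 after scaling. With 1 animal left out, interactions ran from -0.15 to 0.27 for Il2rb, -0.35 to 0.11 for Cd2, -0.20 to 0.17 for Cd3g, -0.053 to 0.17 for Ptprcap and -0.22 to 0.25 for Trav9d-3. XXF minus XYF ran from -0.012 to 0.41 for Il2rb, -0.034 to 0.42 for Cd2, -0.033 to 0.34 for Cd3g, -0.013 to 0.21 for Ptprcap and -0.037 to 0.42 for Trav9d-3, and XXM minus XYM of Cd2 from -0.062 to 0.19. The other leukocyte lists held 33 lower genes after scaling, 32 after quantile normalization and 28 with array weights, against 18. The cause was not tested. Leaving out 1 animal gave 18 to 33 lower genes in the T and NK cell lists and 11 to 25 in the others, and 393 to 1129 features called between gonadal types, against 809.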
